A study of Mus musculus with 6 samples.

Results

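The expression of 10 genes of the YAP and TEAD pathway was followed in AML-12 mouse hepatocytes with less manganese superoxide dismutase (MnSOD). They were the coactivator genes Yap1 and Wwtr1, the DNA-binding partner genes Tead1, Tead2, Tead3 and Tead4, and the target genes Ctgf, Cyr61, Ankrd1 and Amotl2. The members were chosen by name, and each was read from rows annotated with its symbol alone, Ctgf and Cyr61 under their current symbols Ccn2 and Ccn1. All 10 members were measured among 19938 genes with 1 symbol. Tead1 had several such probe sets and was represented by the brightest.

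YAP, the product of Yap1, and TAZ, the product of Wwtr1, are coactivators without a DNA-binding domain. In crowded or softly anchored cells the Hippo kinases LATS1 and LATS2 phosphorylate them and hold them in the cytoplasm. In sparse or spread cells they enter the nucleus, bind TEAD factors and switch on genes such as Ctgf, Cyr61, Ankrd1 and Amotl2, which makes these genes readouts of cell density and of actin tension. In the liver the pathway restrains organ size and hepatocyte proliferation.

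Both groups were AML-12 cells, a line from hepatocytes of a mouse carrying a transforming growth factor alpha transgene, stably transduced with a pSUPER.retro.puro retrovirus and selected with puromycin. The siMnSOD cells carried a hairpin against MnSOD that was designed for mild silencing, and the siScramble controls a hairpin recognising no gene, with 3 arrays in each group, 1 per sample, whose titles call them biological replicates. Per the labels, frozen cells of 3 batches were used, and the sources used here give neither the number of transductions or clones nor the cell density at harvest. The p-values therefore measure the spread between these samples, and whether each came from its own transduction is not stated. Values are log2 of the deposited normalized intensity, differences are siMnSOD minus siScramble, and a gene was called at an adjusted p under 0.05 in limma, a linear model fitted to all genes.

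The gene for MnSOD, Sod2, was lower on every siMnSOD array, at 6.63, 6.92 and 5.71 against 7.95, 7.99 and 8.20 in the controls, with a difference of −1.63 (SE 0.30, adjusted p = 0.037). The arrays numbered 3 stood apart from the others. Over all 35557 probe sets siScramble 3 correlated with siScramble 1 and 2 at r = 0.976, whereas those arrays correlated with each other at 0.993. The corresponding values for siMnSOD were 0.984 and 0.985 against 0.992. Among hepatocyte markers, 8 of 10 measured were above a background level of 4.28, keratin gene Krt8 and transcription factor gene Hnf4a among them, but Alb and Ttr, which encode plasma proteins made by hepatocytes, were not. Summed intensities of this list were 15599 to 18000 in siMnSOD and 11024 to 15050 in siScramble, and those of 4 biliary and progenitor markers 3894 to 4180 and 1904 to 3292. These linear sums rest mainly on bright keratin genes. Mean log2 values in siMnSOD and siScramble were 13.04 and 12.45 for Krt8, 12.48 and 12.36 for Krt18, and 11.48 and 10.77 for the biliary marker Krt19. Krt8 (0.59) was not called. Krt18 (0.13), Apob (0.21) and Trf (0.07) overlapped between groups and Cebpa was lower (−0.27), also without a call. The sums for stellate and fibroblast (200 to 245 and 210 to 241), endothelial (91 to 118 and 91 to 113) and leukocyte markers (137 to 158 and 147 to 167) overlapped between groups, with 5 of 8, 1 of 6 and 3 of 7 genes above background. Of the biliary and progenitor markers 3 of 4 were above background (Krt7, Krt19 and Sox9, but not Epcam). Hnf4a rose by 1.09 (SE 0.14, adjusted p = 0.013) and Sox9 fell by 0.86 (SE 0.14, adjusted p = 0.027), whereas Krt7 (1.15, adjusted p = 0.38) and Krt19 (0.70, adjusted p = 0.19) were not called. Genes at background included Pdgfrb, Dcn and Lrat of the stellate list, all endothelial genes except Stab2, and Ptprc, Adgre1, Clec4f and Itgam of the leukocyte list, while Acta2, Col1a1, Col1a2, Col3a1, Des, Cd68, Csf1r and Cd3e were above it. The part of the marker differences in the results was not tested.

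TEAD factors bind the letters GGAATG, read as CATTCC on the other strand. The promoters of Cyr61, Ankrd1 and Amotl2 are shown, the 3 of the 4 target genes for which a promoter window was found. Each window runs from 250 bases before to 50 bases after the gene start, is written 5′ to 3′ on the gene's strand in lower case, and has GGAATG or CATTCC in capitals. Sequences and coordinates are RefSeq's on GRCm38.p6. The Cyr61 window is chr3:145649936-145650235 on the minus strand, with a match that begins 103 bases before the start. The Ankrd1 window is chr19:36119795-36120094 on the minus strand, with matches 210 and 123 bases before the start. The Amotl2 window is chr9:102717554-102717853 on the plus strand, with a match 65 bases before the start.

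Cyr61: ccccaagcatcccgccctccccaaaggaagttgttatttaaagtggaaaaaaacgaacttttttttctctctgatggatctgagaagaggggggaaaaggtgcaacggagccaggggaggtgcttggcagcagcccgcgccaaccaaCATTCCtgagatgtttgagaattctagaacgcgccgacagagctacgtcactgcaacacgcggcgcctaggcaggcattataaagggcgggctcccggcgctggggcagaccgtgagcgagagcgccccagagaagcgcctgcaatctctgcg

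Ankrd1: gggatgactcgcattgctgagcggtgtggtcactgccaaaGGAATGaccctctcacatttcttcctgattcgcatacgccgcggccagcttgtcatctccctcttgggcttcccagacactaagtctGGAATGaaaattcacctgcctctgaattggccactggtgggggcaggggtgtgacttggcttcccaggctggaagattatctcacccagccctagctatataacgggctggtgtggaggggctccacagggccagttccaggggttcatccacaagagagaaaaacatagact

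Amotl2: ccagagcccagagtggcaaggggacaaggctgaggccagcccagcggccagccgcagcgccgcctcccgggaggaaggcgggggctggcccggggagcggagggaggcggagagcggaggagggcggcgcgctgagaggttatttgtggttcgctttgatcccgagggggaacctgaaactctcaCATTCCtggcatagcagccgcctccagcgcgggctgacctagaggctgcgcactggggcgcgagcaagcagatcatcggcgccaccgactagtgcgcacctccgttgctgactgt

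Promoter windows were found for 7 of the 10 members, and not for Ctgf, Tead1 and Tead4. In 6 of them at least 1 window held the letters on either strand, as did 16.6% of 27025 genes with such windows. Besides the targets above, Yap1 had a match 141 bases before its start, Wwtr1 had 1, and Tead3 had matches in 2 of 3 alternative windows, while none was found in the Tead2 window. A match describes the letters in these windows only, and no binding was measured.

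No member passed the threshold over the 6 arrays, in either direction, where 3.75% of all genes did. At an unadjusted p under 0.05, Tead1 and Ankrd1 were lower and none was higher. The median difference over the members was −0.18 (0.01 over all genes), with 8 negative and 2 positive values. Without control array 3, which lay far from the other controls for all 4 targets, Ctgf, Cyr61 and Ankrd1 were called lower, where 5.61% of all genes were called lower and the same share higher. In these bulk samples, fewer cells expressing a gene and less RNA per cell cannot be told apart.

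The 4 target genes had one pattern in common, namely high levels on control arrays 1 and 2 and low levels on control array 3. Cyr61 encodes CCN1, a secreted matrix-associated protein that signals through integrins. It read 10.05, 9.96 and 10.42 on siMnSOD arrays 1, 2 and 3, and 11.10, 11.11 and 9.04 on siScramble arrays 1, 2 and 3. The knockdown arrays thus lay between the high and the low controls, and the groups overlapped. The siScramble SD of 1.19 (n = 3) compares with a median of 0.18 and a 95th percentile of 0.56 over all genes, while the siMnSOD SD was 0.24 (n = 3). The difference was −0.27 (SE 0.54, 95% interval −1.56 to 1.02, adjusted p = 1.00 in limma). Within array numbers 1 and 2 Cyr61 stood at 48.5% and 45.0% of its control, and within number 3 at 261%.

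Ctgf encodes CCN2, a secreted relative of CCN1 that promotes matrix deposition. It read 10.21, 10.31 and 10.38 in siMnSOD against 10.81, 10.76 and 9.79 in siScramble. As for Cyr61, controls 1 and 2 lay above all knockdown arrays and control 3 lay below them all. The difference was −0.15 (SE 0.27, interval −0.80 to 0.49, adjusted p = 1.00), with 66.3%, 72.9% and 151% of the control within numbers 1, 2 and 3. Amotl2 encodes a junctional angiomotin protein that binds YAP and is itself induced by it. It followed the same order, with 9.42, 9.45 and 9.20 in siMnSOD against 9.78, 9.80 and 8.75 in siScramble. Its difference was −0.09 (SE 0.29, interval −0.77 to 0.59, adjusted p = 1.00), with 77.5%, 78.0% and 137% of the control within numbers.

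Ankrd1, which encodes an ankyrin repeat protein of the nucleus and of muscle sarcomeres, had the largest difference of the 10 members. Its values were 11.10, 11.14 and 11.37 in siMnSOD against 12.40, 12.45 and 11.18 in siScramble. Control 3 lay within the range of the knockdown arrays here, not below it. The difference was −0.81 (SE 0.34, interval −1.60 to −0.01), with an unadjusted p of 0.047 and an adjusted p of 0.30 in limma, and an exact two-sided permutation test gave p = 0.2, where the smallest value that 3 against 3 arrays allow is 0.1. Ankrd1 stood at 40.6% and 40.3% of its control within numbers 1 and 2, and at 114% within number 3.

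**Figure D1:**
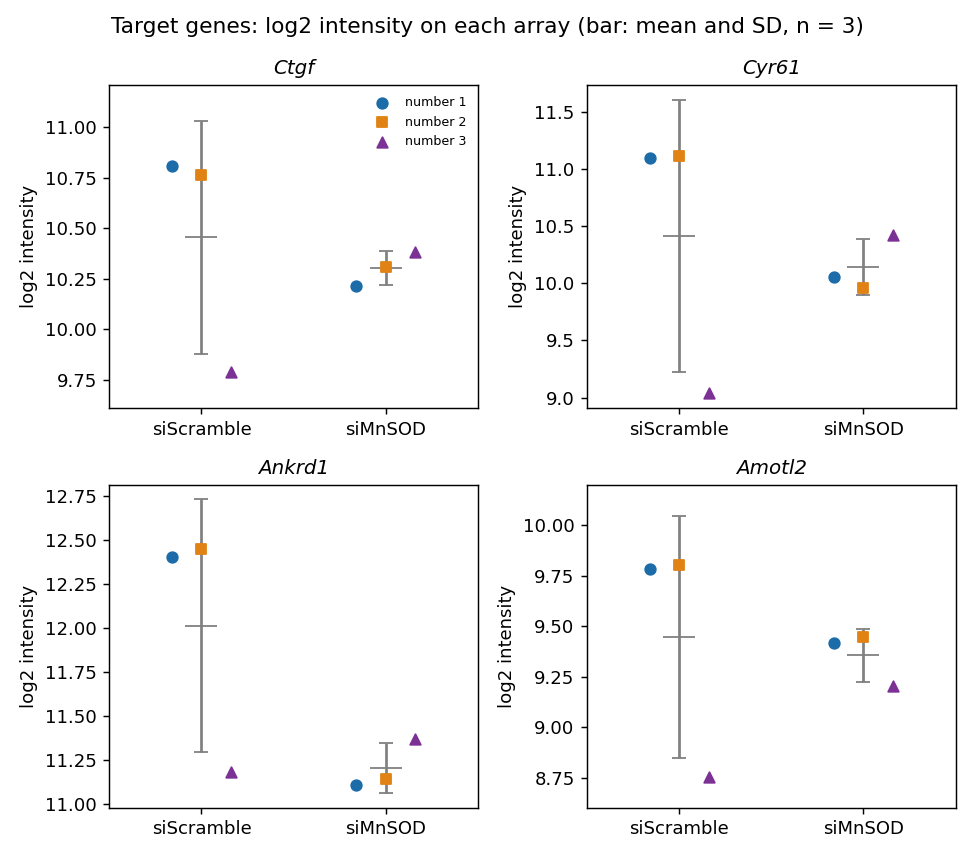
Log2 intensity of the 4 target genes on each array, with siScramble on the left and siMnSOD on the right of each panel, the symbol giving the array number and the grey bar the mean and SD of 3 arrays. Control array 3 (triangle) lies well below the other controls in every panel, and below all knockdown arrays for Ctgf, Cyr61 and Amotl2.

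Without control array 3, Ankrd1 had a difference of −1.22 (SE 0.12, adjusted p = 0.0030), Cyr61 of −0.96 (SE 0.16, adjusted p = 0.015) and Ctgf of −0.48 (SE 0.10, adjusted p = 0.034) in limma. Amotl2 had −0.44 (SE 0.11, adjusted p = 0.064). Leaving out control 1 or control 2 instead turned Ctgf (0.026 and 0.0037), Cyr61 (0.071 and 0.079) and Amotl2 (0.077 and 0.086) slightly positive and left Ankrd1 negative. The sign of the difference for these 3 targets thus turned without control 1 or control 2, and stayed negative without control 3. Ankrd1 was negative whichever array was left out, from −1.22 to −0.59.

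The size of the drop on control array 3 can be read against all genes. For Cyr61, control 3 minus the mean of controls 1 and 2 was −2.07 on the log2 scale, and 0.401% of genes had a lower value of this deviation. The deviations were −1.25 for Ankrd1, −1.04 for Amotl2 and −1.00 for Ctgf, with 1.73%, 2.58% and 2.87% of genes lower. All 4 targets and Tead4 (−0.81) were under the 5th percentile of −0.77, while the median over all genes was 0.10. On the knockdown side the matching deviation of array 3 was small for the targets, at 0.42, 0.25, −0.23 and 0.12 for Cyr61, Ankrd1, Amotl2 and Ctgf. The order seen for Cyr61, with controls 1 and 2 above and control 3 below every knockdown array, held for 4 of the 10 members (Yap1, Ctgf, Cyr61 and Amotl2) and for 3.59% of all genes. It was looked for after these values had been seen.

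**Figure D2:**
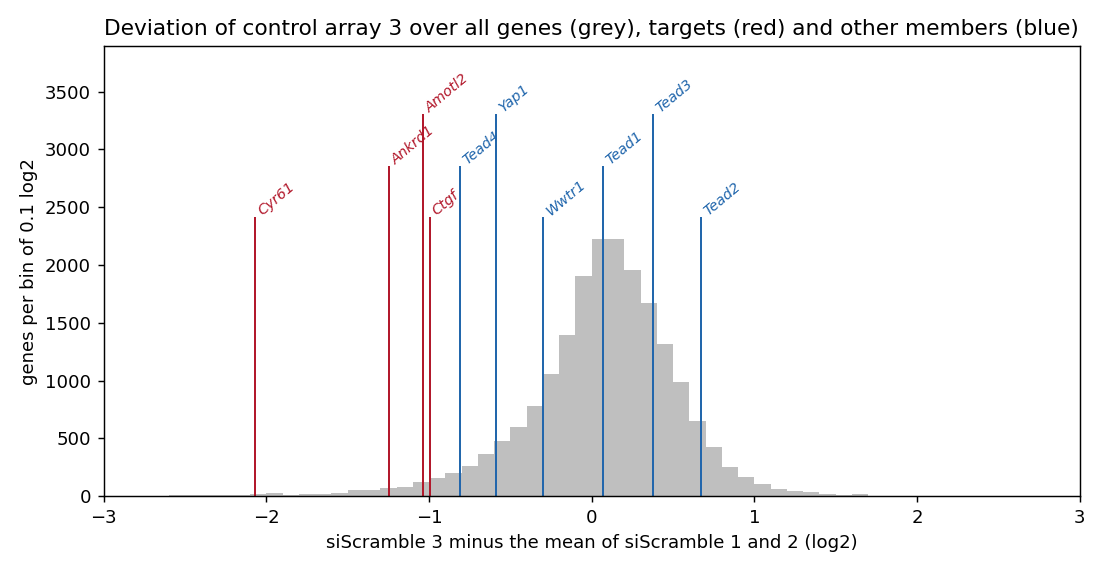
Histogram over 19938 genes of control array 3 minus the mean of control arrays 1 and 2 (log2, bins of 0.1), with the 4 targets marked in red and the other members in blue. The targets lie between −2.07 and −1.00, in the lower tail, whereas Tead1, Tead2 and Tead3 lie at 0.07, 0.67 and 0.38.

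Neither coactivator gene was called. Yap1 read 8.80, 8.96 and 8.65 in siMnSOD against 9.21, 9.19 and 8.61 in siScramble, so that control 3 lay just under the lowest knockdown array. The difference was −0.20 (SE 0.19, interval −0.64 to 0.24, adjusted p = 0.84), with 75.1%, 85.5% and 103% of the control within numbers 1, 2 and 3. Wwtr1, whose product TAZ acts alongside YAP, read 8.43, 8.64 and 8.61 against 9.02, 8.77 and 8.59. The groups overlapped through control 3, and the difference was −0.23 (SE 0.14, interval −0.56 to 0.10, adjusted p = 0.57), with 66.5%, 91.8% and 101% within numbers. Without control 3 they were not called either, at −0.40 and −0.33 (adjusted p = 0.10 and 0.19 in limma).

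The signs of the differences varied among the TEAD genes. Tead1 was the only member with all knockdown arrays below all controls. It read 9.75, 9.68 and 10.21 in siMnSOD against 10.44, 10.46 and 10.52 in siScramble, and here the controls lay close together (SD 0.043, n = 3) while knockdown array 3 was higher than the other knockdown arrays. The knockdown level was 66.1% of the control as a ratio of geometric means, and 61.7%, 58.1% and 80.6% within numbers 1, 2 and 3. The difference was −0.60 (SE 0.16, interval −0.97 to −0.22), with an unadjusted p of 0.0072 and an adjusted p of 0.10 in limma, and p = 0.1 in the exact two-sided permutation test. A dimmer probe set of Tead1 read 8.68, 8.65 and 8.69 in siMnSOD and 9.46, 9.55 and 8.93 in siScramble, a difference of −0.64 (SE 0.17, adjusted p = 0.11 when all probe sets were tested). Both probe sets thus separated the groups. Tead1 passed without knockdown array 3 (−0.76, adjusted p = 0.028), where 1.01% of all genes were called lower, and with array numbers as a random block (−0.60, adjusted p = 0.021), where 5.55% were.

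Tead4 was the other member whose groups did not overlap, in the opposite direction. It read 8.18, 8.32 and 8.15 in siMnSOD against 7.98, 8.13 and 7.25 in siScramble. The lowest knockdown array was only just above the second control, and most of the difference of 0.43 (SE 0.23, interval −0.12 to 0.98, adjusted p = 0.48) came from control 3, since the value without it was 0.16 (SE 0.11). Non-overlapping groups were found for 2 of 10 members and for 20.9% of all genes. Tead2 read 7.75, 7.94 and 7.94 against 7.51, 7.41 and 8.13, with a difference of 0.19 (SE 0.20, interval −0.28 to 0.67, adjusted p = 0.88) that had the opposite sign within number 3 (−0.19). Tead3 read 6.14, 6.06 and 6.37 against 6.09, 6.10 and 6.47, with a difference of −0.03 (SE 0.15, interval −0.39 to 0.32, adjusted p = 1.00). Array 3 was the highest in both groups for Tead3, and its sign turned to positive when arrays were centred on their medians (0.053).

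**Figure D3:**
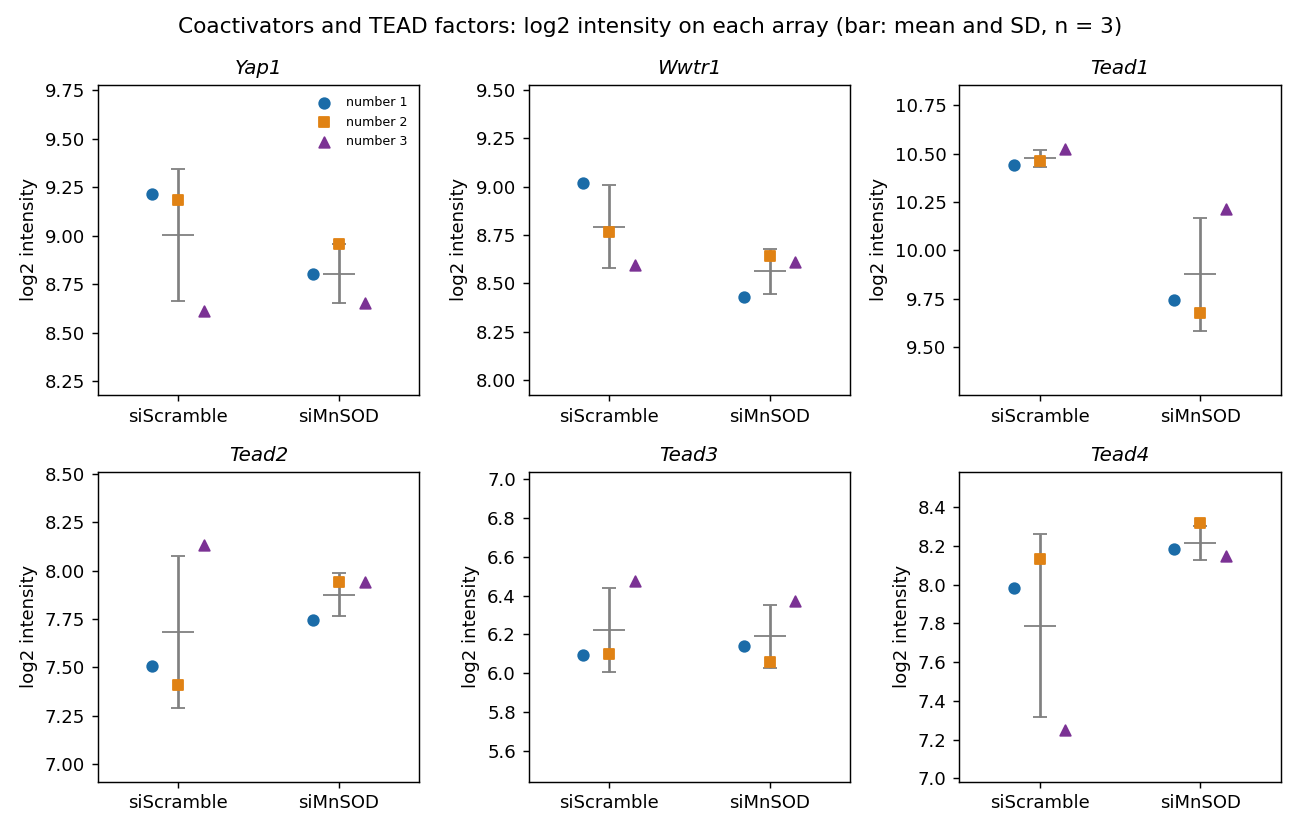
Log2 intensity of the 2 coactivator genes and the 4 TEAD genes on each array, drawn as for the targets (bar, mean and SD of 3 arrays). The groups are separate for Tead1, lower in siMnSOD, and barely separate for Tead4, higher in siMnSOD, and they overlap in the other panels.

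Within array numbers 1 and 2, 7 and 8 of the 10 members were lower in siMnSOD, and within number 3 only 3 were. The median difference over the targets was −0.82, −0.80 and 0.52 within numbers 1, 2 and 3, against 0.016, 0.005 and 0.007 over all genes. With the array number as a block no member was called, where 7.14% of all genes were, the lowest adjusted p being 0.055 for Tead1. When limma weighted each array by its spread, control 3 received a weight of 0.155 and knockdown 3 one of 0.25, against 1.35 to 2.84 for the others, and 7 of the 10 members were called, 6 lower and 1 higher, where 23.4% of all genes were called. With the arrays numbered 1 and 2 alone, 6 members were called, 5 lower and 1 higher, where 21.4% of all genes were.

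**Figure D4:**
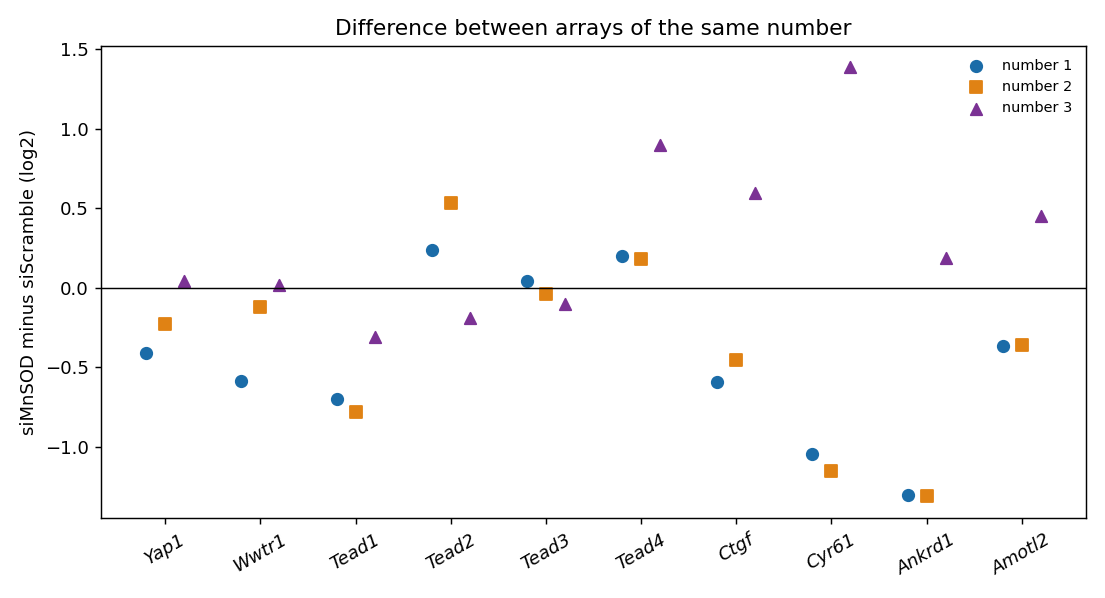
Difference siMnSOD minus siScramble (log2) between arrays of the same number for each of the 10 members, with 1 symbol per array number. The 4 targets lie below 0 for numbers 1 and 2 (−1.31 to −0.36) and above 0 for number 3 (0.19 to 1.39), whereas Tead1 lies below 0 for all numbers.

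The upstream Hippo genes moved in both directions. Of 22 measured kinases, adaptors and upstream regulators, 2 rose and 1 fell, where 2.17% of all genes rose and 1.58% fell, and the list's median was −0.04. Frmd6, a FERM-domain activator of the Hippo kinases, read 7.29, 7.33 and 7.67 in siMnSOD against 8.66, 8.84 and 8.22 in siScramble and fell by 1.14 (SE 0.19, adjusted p = 0.027). Amot, which encodes angiomotin, a relative of Amotl2 that binds YAP at junctions, read 5.86, 5.88 and 5.76 against 5.27, 5.09 and 5.24 and rose by 0.63 (SE 0.10, adjusted p = 0.027). Taok2, which encodes a kinase able to activate the Hippo kinases, rose by 0.78 (SE 0.15, adjusted p = 0.044). In each of the 3 genes the groups did not overlap, as in 20.9% of all genes, which by itself gives the same sign within every array number. The genes were picked by their call over the same arrays, so this separation is not independent support. With the block 3 members of the list were lower, Lats1 (−0.53, adjusted p = 0.043) and Rassf1 (−0.76, adjusted p = 0.018) besides Frmd6. Amot and Taok2 were called higher (adjusted p = 0.030 for each), where 623 of all 19938 genes were called lower and 801 higher. Of the vestigial-like cofactors of TEAD, Vgll3 (−0.52, adjusted p = 0.29) and Vgll4 (0.13, adjusted p = 0.86) had the smallest p-values of 4, and none was called.

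Among 18 other YAP and TEAD target genes 1 fell and none rose, where 1.58% of all genes fell and 2.17% rose, with a list median of −0.17. The gene that fell was Gadd45a, a growth arrest gene that p53 and ATF4 also induce. It read 8.63, 8.62 and 8.30 in siMnSOD against 10.82, 10.83 and 9.78 in siScramble and fell by 1.96 (SE 0.29, adjusted p = 0.019). Control 3 was the lowest control here too, but it stayed above every knockdown array. Nt5e, the gene of the surface enzyme CD73, had −1.38 (SE 0.31, adjusted p = 0.067, or 0.034 with the block). Without control 3, 5 of the 18 were lower, where 5.61% of all genes were called lower. They were Gadd45a, F3 (−1.65), Nt5e (−1.00), Nuak2 (−0.74) and Lats2 (−0.49). F3, the tissue factor gene, read 7.51, 7.65 and 7.67 against 9.26, 9.25 and 7.33, in the same order as Cyr61. The list as a whole did not share this drop. Control 3 minus the mean of controls 1 and 2 had a median of −0.04 over the 18 genes. Of these, 3 were under the 5th percentile over all genes, against 5 of 19 actin and SRF genes. This deviation had the opposite sign for Nt5e (1.14), and for the biliary marker Krt7 it was −2.06. The CCN family relatives of Ctgf and Cyr61 had no call among 4 genes. Ccn4 read 8.24, 8.22 and 8.49 against 9.79, 9.83 and 7.73, again in the order of Cyr61, with −0.80 (SE 0.54, adjusted p = 0.65), and Ccn5 had −0.16 (SE 0.14, adjusted p = 0.79).

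Genes of the actin cytoskeleton and of its transcription factor SRF, which share targets with YAP, had no call among 19 measured genes and a median of −0.01. Mrtfa, the gene of an SRF coactivator that senses actin (−0.47, SE 0.11, adjusted p = 0.084), and Cald1, which encodes the actin-binding caldesmon (−0.44, SE 0.11, adjusted p = 0.095), had the smallest p-values. Both were called lower with the block (adjusted p = 0.042 for each) together with Fhl2 (−0.64, adjusted p = 0.039). With the block 623 of all 19938 genes were called lower and 801 higher. Of 19 measured cell junction and polarity genes, 3 fell and none rose, where 1.58% of all genes fell and 2.17% rose, with a list median of −0.06. Nectin2, which encodes an adhesion molecule of adherens junctions, read 7.15, 7.16 and 6.94 against 8.64, 8.56 and 8.33 and fell by 1.43 (SE 0.13, adjusted p = 0.0042). F11r, the gene of a tight junction adhesion molecule, fell by 0.60 (SE 0.11, adjusted p = 0.037), and Pard3, the gene of a polarity scaffold, fell by 0.53 (SE 0.10, adjusted p = 0.037). The differences within array numbers 1, 2 and 3 were −1.48, −1.40 and −1.40 for Nectin2, −0.61, −0.56 and −0.65 for F11r, and −0.53, −0.50 and −0.56 for Pard3, so that array 3 did not stand apart for these genes.

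**Figure D5:**
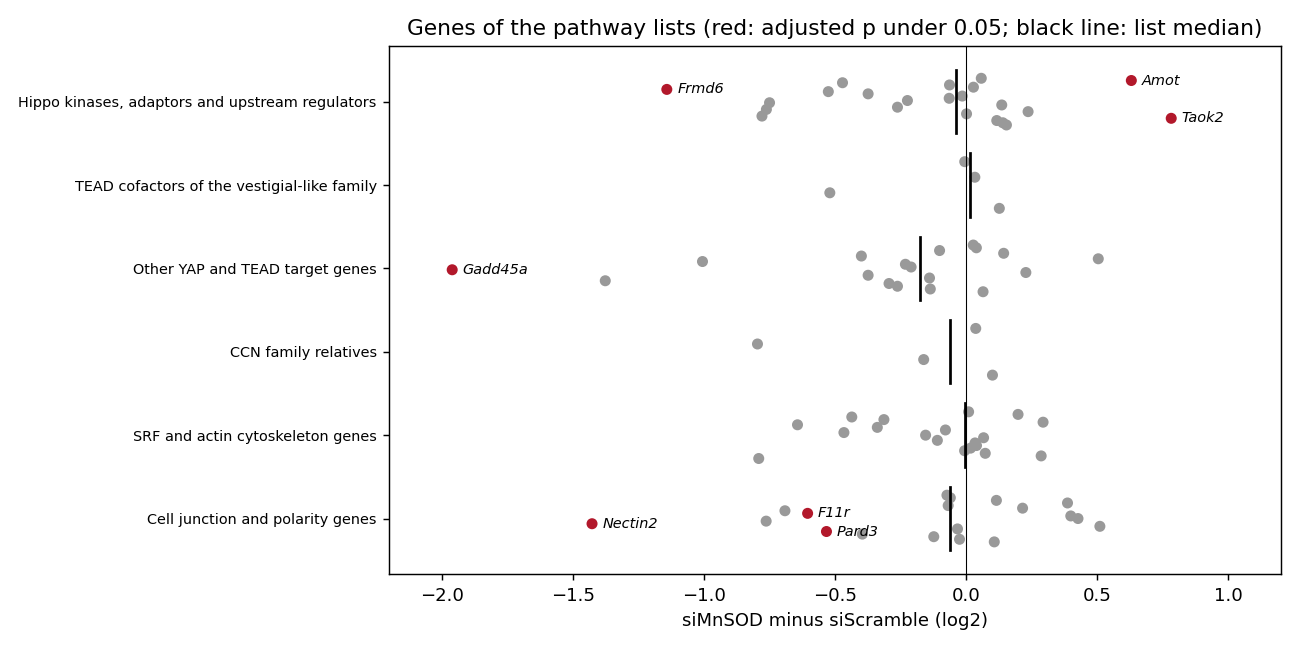
Difference siMnSOD minus siScramble (log2) for each measured gene of the 6 pathway lists, with called genes in red and named and the median of each list as a black line. Called genes lie on both sides of 0 in the Hippo list and below 0 in the other target and junction lists, and the medians lie between −0.17 and 0.01.

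Of these 7 called list genes, Nectin2 passed whichever array was left out (highest adjusted p 0.038). The others lost the call without knockdown array 1 or 2 or control array 1 or 2. Their highest adjusted p-values were 0.14 for Amot and Frmd6, 0.10 for Gadd45a, 0.17 for F11r and Pard3 and 0.19 for Taok2. Gadd45a, F11r, Pard3 and Taok2 also lost it without knockdown array 3. Centring arrays on their medians removed the limma calls of Frmd6 (adjusted p = 0.061), Amot (0.052), Pard3 (0.14) and F11r (0.17). Quantile normalization removed that of Taok2 (0.052), and a trended, robust variance prior those of Amot (0.0545), Taok2 (0.053) and Pard3 (0.059). Nectin2 and Gadd45a kept the call under each of these settings.

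Genes resembling the targets were sought by Pearson correlation over the 6 arrays, as a description, among 12878 genes above background. Closest to the mean standardized profile of the 4 targets were Prkci (r = 0.998), Slco3a1 (0.998), Serpinb9b (0.997), Map2k3 (0.997) and Nuak2 (0.997). All 5 were low on control array 3, with deviations from the other controls of −0.65 (Slco3a1) to −2.50 (Serpinb9b), and none was called. The profile used for this choice was itself lowest on control array 3 (−1.37), so both traits largely follow from the choice. Closest to Yap1 were Tango6 (r = 0.995), Ppp1r10 (0.993) and Ltv1 (0.992), also without a call.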

How the data were processed

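RNA of 6 samples was hybridised to Affymetrix Mouse Gene 1.0 ST arrays. Each deposited value is a linear, normalized intensity. The authors summarised probes with RMA per the submitters' processing notes, whereas the labels' design text names MAS5, and the sources used here give no version or background correction. The number of arrays limits the precision. A platform annotation gave 1 symbol for 21789 of 35557 probe sets, several for 1621 and none for 12147, and symbols were updated through Entrez identifiers (21698 matched, GRCm38.p6, names only). The brightest probe set stood for a gene. Probe sets with several symbols were tested but not named, and those without a symbol were left out, giving 21559 tested rows. Background was the 95th percentile of 1027 olfactory receptor genes.

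The model was fitted to log2 values by lmFit and eBayes of limma 3.58.1 (R 4.3.3) with group as its single term, Benjamini-Hochberg adjustment over all tested rows and a threshold of 0.05. It was tested on simulated data. Deviations of same-numbered arrays from their group means correlated at 0.30, 0.29 and 0.56. These values cannot show pairing. Deviations cancel out within a group, so a deviation shared by the arrays numbered 3 alone would raise the other values too. Over all probe sets siMnSOD 2 correlated more with siScramble 1 (0.982) than with siScramble 2 (0.979), and siMnSOD 1 alike with both (0.985). By contrast, siMnSOD 3 correlated more with siScramble 3 (0.979) than with siScramble 1 (0.976) or 2 (0.973). That value also exceeded the correlation of siScramble 3 with siScramble 1 and 2 (0.976 for each). The block and the differences within numbers treat same-numbered arrays as matched. The titles give only the number of each biological replicate and not what same-numbered arrays share. The members, lists and tests were chosen with earlier results of these data known. Named were the 10 members, Sod2, called list genes (otherwise the 2 of smallest p), and the genes most correlated with the targets (5) or Yap1 (3). F3, Nt5e, Lats1, Lats2, Rassf1, Fhl2 and the markers were named after their values were seen. List genes without a row of that symbol alone, such as Stk3 and Actg1, were not analysed here. Alternatives were other scalings, an offset of 16, a filter on dim rows, other uses of probe sets, another variance prior, array weights, the replicate number as a block, and leaving out each array.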

Additional observations from a re-analysis of the deposited data

How the results depend on the processing

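Tead1 and Ankrd1 stayed lower, and Tead2 and Tead4 higher, in siMnSOD under every alternative run, as did the negative signs of Yap1 and Wwtr1. Tead3 turned positive with arrays centred on their medians (0.053), with array weights (0.019) and with the arrays numbered 1 and 2 alone (0.002), an alternative chosen after seeing the data. Array weights made Yap1 (−0.34), Wwtr1 (−0.37), Tead1 (−0.70), Tead2 (0.35), Ctgf (−0.50), Cyr61 (−1.00) and Ankrd1 (−1.26) pass, giving 1 member higher and 6 lower where 23.4% of all genes were called. The arrays numbered 1 and 2 alone made Tead1 (−0.74), Tead2 (0.39), Ctgf (−0.52), Cyr61 (−1.10), Ankrd1 (−1.31) and Amotl2 (−0.36) pass, giving 1 higher and 5 lower where 21.4% of all genes were called. The random block made Tead1 (−0.60) pass, giving 1 lower where 5.55% of all genes were called lower. The replicate block changed no call of a member.

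Leaving out 1 array in turn gave values from −0.44 to 0.086 for Amotl2, −1.22 to −0.59 for Ankrd1, −0.48 to 0.026 for Ctgf, −0.96 to 0.079 for Cyr61, −0.76 to −0.50 for Tead1 and −0.12 to 0.094 for Tead3, with 0 to 3 members lower. Over all genes it gave 52 to 1119 higher and 25 to 1119 lower, against 432 and 316 with all arrays. The counts were 801 and 623 with the replicate block, 1291 and 1107 with the random block, 2486 and 2188 with array weights, and 2343 and 1932 with numbers 1 and 2 alone. Centring on medians left 140 lower and raised the share of higher genes among calls from 57.8% to 72.3%.

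Counts of called list genes changed with the settings and did not always follow the calls over all genes. With the replicate block 801 genes were called higher, against 432 in the main fit, while higher calls in the Hippo list stayed at 2. The share of all genes called in either direction was 3.75% in the main fit and 7.14% with the replicate block. It was 23.4% with array weights and 21.4% with numbers 1 and 2 alone. With the random block 5.55% of all genes were called lower. Of 19938 genes, 365 were called higher and 140 lower with centring, and 517 and 392 with quantile normalization. The corresponding counts were 560 and 422 with the offset and 362 and 238 with a trended, robust prior, against 432 and 316 in the main fit. In the Hippo list, higher calls were 1 with centring or quantile normalization and 0 with a trended, robust prior, and 0 to 2 when 1 array was left out. Lower calls there were 0 with centring, 2 with the offset, 3 with the replicate block, 5 with the random block or numbers 1 and 2 alone, 6 with array weights, and 0 to 4 when 1 array was left out. Among other targets, the replicate and random blocks gave 2 lower, array weights 2 higher and 7 lower, numbers 1 and 2 alone 2 higher and 6 lower, and leaving out 1 array 0 to 5 lower. Vestigial-like and CCN lists each had 1 lower with array weights or numbers 1 and 2 alone, and 0 to 1 when 1 array was left out. Actin and SRF genes had 1 lower with quantile normalization, 2 with the offset or the random block, 3 with the replicate block, 7 with array weights, 8 with numbers 1 and 2 alone, and 0 to 2 when 1 array was left out. Junction and polarity genes had 1 lower with centring, 1 higher and 6 lower with the random block, 5 higher and 6 lower with array weights, 5 and 5 with numbers 1 and 2 alone, and 0 to 1 higher and 1 to 4 lower when 1 array was left out. The causes of these changes were not tested.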
